A study of Mus musculus with 6 samples.

Results

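The genes described here are the histone genes whose transcription is tied to DNA synthesis. They were taken from the deposited count table as the columns whose symbol starts with H1f, H2ac, H2bc, H3c or H4c followed by a digit, or with Hist1h to Hist4h, which gave 58 of 17831 genes. They comprised 7 genes of the linker histone H1 and, of the core histones, 16 genes of H2A, 14 of H2B, 11 of H3 and 10 of H4. The family was picked for its difference between the genotypes, led by H2ac7 and Hist1h2ao, so all comparisons of its members between the groups are descriptions. A member is said to be called where it passed the threshold of the fit over all genes, and no p value is printed for it. The rule goes by name. It took in H1f0, the linker histone of slowly dividing and differentiated cells, H1f8, the linker histone of oocytes, and Hist1h2al, which is annotated as a processed pseudogene, and none of these is a replication-dependent histone gene in the usual sense.

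The RNA came from 6 libraries of lung group 2 innate lymphoid cells (ILC2s), 3 from WT mice and 3 from SIRPα KO mice. WT mice were C57BL/6 (spelled CB57BL/6 in the labels) and the KO mice, called the knockout below, were of the line SIRPalphatm1Ynliu/J, and the comparison asked how the transcriptome of activated ILC2s differs when the inhibitory receptor SIRPα is missing. All mice were 6 to 8 weeks old and were given the alarmin rmIL-33, which activates ILC2s, into the nose on 3 days at 0.5 μg. On day 4 the ILC2s were sorted as CD45+ Lin- CD127+ ST2+ cells and then cultured with rmIL-2 and rmIL-7 at 10 ng/mL each. The study's text gives 18 h of culture and its legend 24 h. The KO line is a germline mutant, so other cells of these mice carry the mutation as well, and the number of mice behind each library is not given in the sources used here.

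Replication-dependent histone genes supply the protein that packages newly made DNA. Their mRNAs rise when a cell enters S phase and fall when it leaves it, and they are the only animal mRNAs that usually end in a short RNA hairpin, the histone stem-loop, in place of a poly(A) tail. The stem-loop is bound by SLBP, and the U7 snRNP cuts the transcript just after it. The genes have no introns, sit in a few dense clusters, and exist in many copies that encode the same or nearly the same protein, so that reads on their coding bases often fit several genes equally well. The SMARTer kit used for the libraries starts cDNA from poly(A) tails, in contrast to the usual end of these mRNAs, so the reads may hold only part of the histone mRNA of the cells, and how large a part was not tested.

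Of the members, 49 lie on chromosome 13, 7 on chromosome 3, and 1 each on chromosomes 6 (H1f8) and 15 (H1f0), in the mm10 build. The GENCODE M21 transcripts were searched, in the direction of the mRNA, for the core letters of the histone stem-loop (its paired stem and its loop, some positions left free). They were present in 39 of 58 members (67.2%), against 172 of 55450 annotated genes (0.31%). Examples of this hairpin follow, with the matching letters in capitals and up to 5 flanking bases, to show how alike the ends of genes with opposite behaviour are. H2ac7 was higher in the knockout, and Hist1h2ao, Hist1h2ap, H2ac11, H2ac18, H2bc11 and H4c9 were lower.
H2ac7: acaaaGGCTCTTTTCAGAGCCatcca
Hist1h2ao: aaaaaGGCTCTTTTCAGAGCCatcca
Hist1h2ap: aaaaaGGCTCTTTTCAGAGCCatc
H2ac11: acaaaGGCTCTTTTCAGAGCCaccta
H2ac18: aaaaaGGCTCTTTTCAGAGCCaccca
H2bc11: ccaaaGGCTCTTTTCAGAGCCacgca
H4c9: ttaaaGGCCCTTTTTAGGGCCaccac
The core was identical in the H2A and H2B genes shown, and the H4 gene differed in its stem and in its loop. H2ac12, the other member that was higher in the knockout, has an annotated transcript of 405 bases that does not hold these letters.

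The members were also close copies of each other along their coding bases. By BLAST+, 40 members matched the transcript of some other gene at 95% identity or more along 50% or more of their own bases, and 18 did not. The first 160 coding bases of 5 H2A genes on chromosome 13 are shown because the members with the highest and most of those with the lowest log2 fold changes of the class are among them. Capitals mark the bases at which a gene differs from Hist1h2ap, and in Hist1h2ap itself the bases at which any of the others differs.
Hist1h2ap: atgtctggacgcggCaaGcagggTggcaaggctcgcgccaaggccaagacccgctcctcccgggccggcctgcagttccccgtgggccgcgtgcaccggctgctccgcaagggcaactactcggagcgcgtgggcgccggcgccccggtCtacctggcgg
Hist1h2ao: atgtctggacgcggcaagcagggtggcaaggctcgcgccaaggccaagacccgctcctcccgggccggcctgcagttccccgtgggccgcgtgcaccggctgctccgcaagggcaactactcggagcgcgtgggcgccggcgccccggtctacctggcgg
H2ac7: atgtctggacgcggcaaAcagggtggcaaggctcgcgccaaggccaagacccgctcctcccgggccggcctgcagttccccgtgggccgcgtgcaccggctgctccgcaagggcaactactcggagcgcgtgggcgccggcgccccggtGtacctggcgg
H2ac12: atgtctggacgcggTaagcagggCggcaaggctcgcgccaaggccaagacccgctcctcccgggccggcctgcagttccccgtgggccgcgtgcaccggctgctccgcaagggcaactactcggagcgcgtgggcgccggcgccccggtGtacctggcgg
H2ac11: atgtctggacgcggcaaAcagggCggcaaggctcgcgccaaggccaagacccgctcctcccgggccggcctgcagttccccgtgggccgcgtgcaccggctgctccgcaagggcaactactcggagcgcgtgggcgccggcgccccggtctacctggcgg
The stretches lie in the single coding exon of each gene, at chr13:21833316-21833475 (minus strand) for Hist1h2ap, chr13:21810467-21810626 (plus) for Hist1h2ao, chr13:23574471-23574630 (plus) for H2ac7, chr13:22035393-22035552 (minus) for H2ac12 and chr13:22042768-22042927 (minus) for H2ac11. Hist1h2ao and Hist1h2ap were identical over all 393 coding bases, and over 452 aligned bases of their transcripts. Counted from the A of the start codon, with the base of Hist1h2ap first, H2ac7 differed from Hist1h2ap by G18A, C150G and A387G. H2ac12 differed over 384 compared bases by C15T, T24C and C150G, and H2ac11 by G18A, T24C and A387G. H2ac7 and H2ac12 differed from each other at 3 of 384 bases and shared an identical run of 360 bases. A read that lies wholly between these positions fits several of the genes, and how the authors' software shared such reads is not given in the sources used here. Of the members' values, 28.2% were whole numbers to within 1e-06, against 59.5% over all genes, so values that are not whole, as division of a read between genes gives, were more common among the histone genes.

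Each library held 13980499 to 19051507 reads on genes. WT replicates 1 and 2 are labelled 37 and 37V1, and knockout replicates 2 and 3 are labelled 44 and 44V1. Libraries that share such a code may come from one sample, n here counts libraries, and if they do, the standard errors and p values are too small. WT replicate 3 stood apart, since it was the highest library for 43 of 58 members, where 31.5% of all tested genes were highest in it. The coefficient of variation between replicates from edgeR was 38.0% in WT, 27.9% in WT without replicate 3 and 15.2% in the knockout. Reads on Sirpa were few, with 149, 96 and 73 in WT and 48, 85 and 28 in the knockout (-1.12 on the log2 scale ± 0.42 SE, edgeR quasi-likelihood test, adjusted p = 0.115), so the transcript alone did not separate the genotypes at the threshold. The cells carried the ILC2 genes, with Gata3 at 946 and 1012 CPM and Il5 at 9192 and 12951 CPM in WT and knockout (means, n = 3), and 12 ILC2 markers summed to 14843 to 15999 CPM (reads scaled to library size) in WT and 20724 to 21291 CPM in the knockout. Of these 12, 3 were called higher and 2 lower by edgeR, against 5.94% and 5.81% of all genes. Among the called, the largest changes were those of Il2ra and Ptprc, which were higher (0.91 and 0.90 on the log2 scale), and Thy1, which was lower (-2.06). Of 3 B cell markers tested, 2 were lower (Cd79a -3.92, Cd79b -0.82), and the list summed to 29.3 to 33.9 CPM in WT and 13.9 to 15.3 CPM in the knockout. Of 2 T cell markers tested, Cd3g was lower (-2.45), and the list summed to 18 to 23.5 CPM and 4.77 to 5.56 CPM, with Cd4 at 0 in all WT libraries. Of 6 macrophage markers tested 0 were called by edgeR (0 at an unadjusted p under 0.05, 0 by DESeq2; Csf1r 0.76, Itgax 0.73), but without WT replicate 3 edgeR called 3 of 7 higher (Itgax, Lyz2 and Marco). The list had sums of 41.0 to 135 CPM and 74.6 to 119 CPM and Siglecf at 0 in all WT libraries. Epcam was lower (-1.18) and Pecam1 higher (0.87), and the list of epithelium and endothelium summed to 60.6 to 85.9 CPM and 46.8 to 107 CPM. With the correction for length and GC content, Ptprc, Cd79b and Epcam were no longer called by edgeR. Of the 12 ILC2 markers, 3 were then called higher and 3 lower, against 558 and 649 of all 13623 genes. With libraries of one code summed, or without any 1 of the knockout replicates, 0 markers of these lists were called by edgeR. With codes summed, 7 of 12 ILC2, 3 of 3 B cell and 2 of 3 T cell markers had an unadjusted p under 0.05 in that test. So had 3359 of all 14581 genes. The part of the other cells in the results on histone genes was not tested.

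Depth on the histone genes was low. They took 0.0465%, 0.0527% and 0.0832% of all reads in WT replicates 1, 2 and 3, and 0.0347%, 0.0327% and 0.0334% in the knockout. Of the 58 members, 41 had under 50 reads in every library, 21 had at least 1 library at 0, and 4 (H1f0, H1f2, H2bc4 and Hist1h2ap) had at least 100 reads in every library. The filter on low counts kept 34 members and left out 24.

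H2ac7, one of the H2A genes of the chromosome 13 cluster (GENCODE name Hist1h2ad, ENSMUSG00000071478.6, chr13:23574381-23574952, plus strand, 1 exon), was close to silent in WT and among the leading H2A genes in the knockout. It had 5, 6 and 3 reads in WT replicates 1, 2 and 3, and 600, 694 and 555 reads in the knockout replicates. The level was 0.304 ± 0.115 CPM in WT and 36.4 ± 1.96 CPM in the knockout (SD, n = 3 each), or, on the log2 scale, a difference of 6.88 with a standard error of 0.29. The groups were far apart, and the 3 knockout libraries lay within a narrow range. H2ac12 (Hist1h2ah, ENSMUSG00000069302.5, chr13:22035164-22035568, minus strand, 1 exon) followed the same direction with less contrast. Its reads were 28, 34 and 66 in WT and 457, 467 and 421 in the knockout, with a log2 fold change of 3.25 ± 0.36 (SE). No library of one group reached the other. Both genes code for H2A, the histone that pairs with H2B in the nucleosome.

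The gene with most H2A reads was Hist1h2ap (ENSMUSG00000094777.2, chr13:21833026-21833507, minus strand, 1 exon). It had 3508, 3284 and 6458 reads in WT and 1815, 1973 and 1756 in the knockout, or 288 ± 122 CPM (SD, n = 3) and 109 ± 6.26 CPM (SD, n = 3). Its log2 fold change was -1.39 (standard error 0.27), and the WT range from 202 to 428 CPM was set by replicate 3. Hist1h2ao (ENSMUSG00000094248.1, chr13:21810465-21810944, plus strand, 1 exon), whose coding bases are the same, fell further. It had 508, 511 and 972 reads in WT and 65, 104 and 80 in the knockout, with a log2 fold change of -3.15 ± 0.33 (SE). All knockout libraries were below all WT libraries for both genes.

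Per kilobase of the longest transcript, the order of these genes changed with the genotype. In WT the levels were 597 CPM per kb for Hist1h2ap, 90.2 for Hist1h2ao, 6.91 for H2ac12 and 0.532 for H2ac7. In knockout they were 227 CPM per kb for Hist1h2ap, 65.7 for H2ac12, 63.6 for H2ac7 and 10.1 for Hist1h2ao. Per kilobase, the ranges of H2ac7 and H2ac12 overlapped over the knockout libraries, and both genes stood above Hist1h2ao in each knockout library and below it in each WT library.

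**Figure D1:**
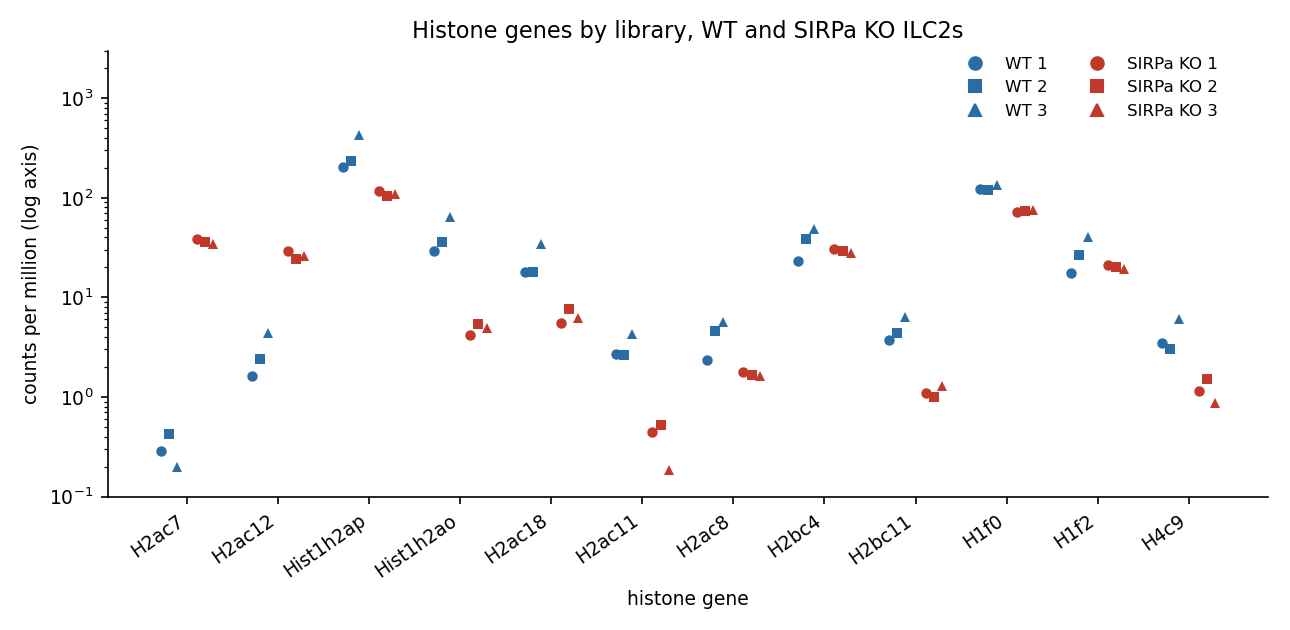
CPM on a log axis for 12 histone genes in each of the 6 libraries (blue, WT; red, knockout; the marker shape gives the replicate). H2ac7 and H2ac12 lie higher in every knockout library, H2bc4 and H1f2 overlap between the groups, and the other 8 genes lie lower, with WT replicate 3 the highest WT library for all genes shown but H2ac7.

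The H2A reads can be read as shares, which do not depend on how much H2A RNA a library held. Hist1h2ap took 77.4%, 77.2% and 77.8% of the H2A reads in WT and 57.9%, 56.7% and 58.5% in the knockout. Hist1h2ao took 11.2%, 12% and 11.7% in WT and 2.07%, 2.99% and 2.67% in the knockout. The share of H2ac7 was 0.110%, 0.141% and 0.0361% in WT and 19.1%, 20% and 18.5% in the knockout. The shares of Hist1h2ap and Hist1h2ao lay close together within a genotype, also in WT replicate 3, which had the most H2A reads, whereas the share of H2ac7 in WT, from 3 to 6 reads, was lowest in that library. For H2ac12 the share was 0.618%, 0.799% and 0.795% in WT and 14.6%, 13.4% and 14% in the knockout. Hist1h2ap exceeded its identical copy Hist1h2ao by a ratio of 6.91, 6.43 and 6.64 in WT and of 27.9, 19 and 21.9 in the knockout. H2ac7 was at 1.31, 1.49 and 1.32 times the reads of H2ac12 in the knockout. As the coding bases of these copies are the same, their ratio is set by reads on other bases and by how the counting divided the rest, and these cannot be told apart with counts per gene.

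**Figure D2:**
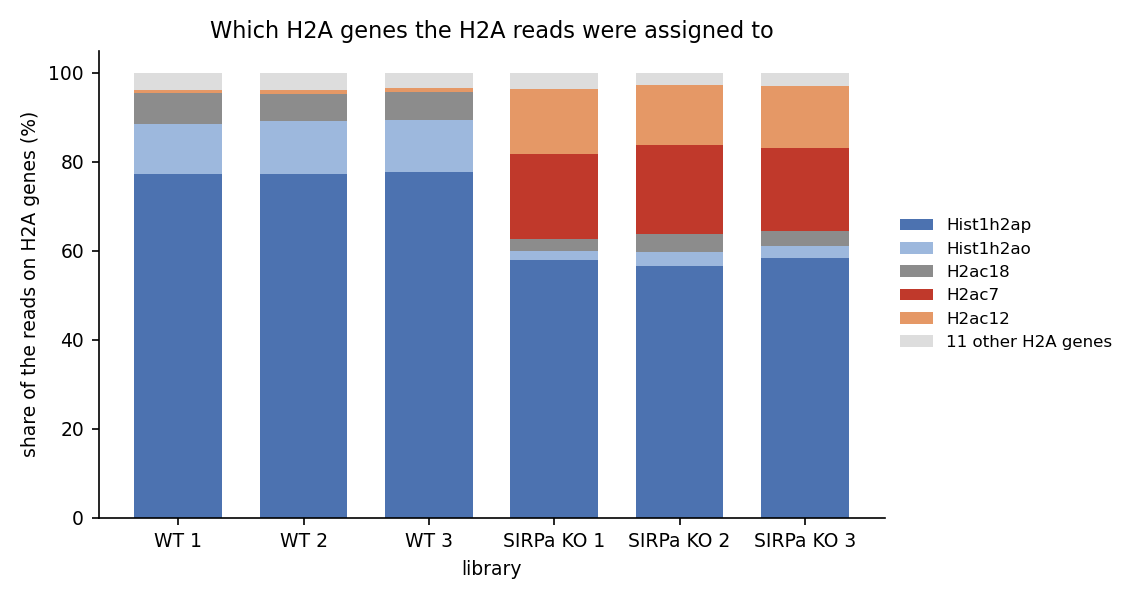
Share of the reads on the 16 H2A genes that was assigned to each of 5 genes and to the 11 others, for each library. Hist1h2ap and Hist1h2ao lost share in all knockout libraries, and H2ac7 and H2ac12, under 1% each in WT, took 13.4% to 20% each.

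Added up, the 4 genes did not balance. Hist1h2ao, Hist1h2ap, H2ac7 and H2ac12 together had 4049, 3835 and 7499 reads in WT and 2937, 3238 and 2812 in the knockout. Their summed level was 334 ± 142 CPM in WT and 177 ± 9.26 CPM in the knockout (SD, n = 3 each), a log2 ratio of -0.91. H2ac7 and H2ac12 went from 3.10 to 63.0 CPM and Hist1h2ao and Hist1h2ap went from 331 to 114 CPM. The sum does not depend on how reads were divided among these 4 genes, and it was lower in all knockout libraries, but its log2 ratio turned to 0.24 with the fit corrected for length and GC content.

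One of the substitutions that set H2ac7 and H2ac12 apart from Hist1h2ap, C150G, was looked up across the tested H2A genes of chromosome 13 after their values were seen. Hist1h2ao and H2ac11 did not carry it, and both had negative log2 fold changes (-3.15 and -3.02), as did Hist1h2ap itself (-1.39). H2ac7 and H2ac12 carried it and had positive ones. H2ac8 also carried it, among 6 substitutions against Hist1h2ap, and had a negative log2 fold change of -1.30 (standard error 0.44). H2ac8 was not called, and its value was -0.61 after the correction for length and GC content. The part of C150G in the differences between these genes was not tested.

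H2ac11 (Hist1h2ag, chr13:22042460-22042944, minus strand) had 47, 37 and 65 reads in WT and 7, 10 and 3 in the knockout, with a log2 fold change of -3.02 ± 0.57 (SE). H2ac18 and H2ac19 on chromosome 3 code for H2A as well and are near copies of each other. Both also matched Gm20634, a gene of the count table outside the family, at 100% over 529 and 528 bases. H2ac18 (chr3:96245497-96246082, plus strand) had 313, 255 and 519 reads in WT and 87, 145 and 101 in the knockout, with a log2 fold change of -1.86 ± 0.31 (SE). H2ac19 (chr3:96239749-96240276, minus strand) had 55, 28 and 63 reads in WT and 19, 1 and 23 in the knockout (log2 fold change -1.80, standard error 0.87). The groups did not overlap for either, and the sum of both was 26.6 ± 10.3 CPM in WT and 7.38 ± 0.521 CPM in the knockout (SD, n = 3 each), a log2 ratio of -1.85. H2ac8 was at 4.2 ± 1.7 and 1.69 ± 0.0894 CPM (SD, n = 3). The other 8 H2A genes had at most 25 reads in any library and were not fitted.

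H2A and H2B genes lie back to back in the clusters and can share the stretch between them as a promoter. Of 10 such pairs, with 175 to 301 bases between their GENCODE transcripts, H2ac7 and H2bc7 (184 bases apart) did not go together. H2bc7 had 0, 2 and 6 reads in WT and 2, 1 and 4 in the knockout. H2bc12, the neighbour of H2ac12 at 301 bases, had 21, 23 and 58 reads in WT and 20, 13 and 13 in the knockout (log2 fold change -1.27, standard error 0.61), the opposite sign to H2ac12. H2ac11 and H2bc11, in contrast, were both lower, with 65, 62 and 96 reads on H2bc11 in WT and 17, 19 and 21 in the knockout (log2 fold change -2.09, standard error 0.40). Hist1h2br, next to Hist1h2ap, had a log2 fold change of -0.66 (standard error 0.51) with overlapping groups. Hist1h2bq, next to Hist1h2ao, had 10, 6 and 4 reads in WT and 0, 7 and 0 in the knockout. Hist1h2bp had no reads in WT and 6, 5 and 3 reads in the knockout, too few for the fit. Next to it, Hist1h2an had 8, 0 and 6 reads in WT and 25, 4 and 14 in the knockout, with overlap.

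The stretch between the RefSeq starts of each partner is shown for the pairs of H2ac7, H2ac12 and H2ac11, since the first 2 H2A genes were higher and the third lower. Each is written in the direction of the H2A gene, ending just before its start, from the RefSeq promoter table of GRCm38.p6. Capitals mark the letters CCAAT (the CAAT box), the letters TATAAA (the TATA box) or the letters ATTTGCAT (the octamer of H2B promoters) on either strand, and no match overlapped another.
H2ac7: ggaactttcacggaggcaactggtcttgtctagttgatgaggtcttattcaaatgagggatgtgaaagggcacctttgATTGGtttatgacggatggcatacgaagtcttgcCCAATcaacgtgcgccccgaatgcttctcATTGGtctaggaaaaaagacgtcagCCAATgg
H2ac12: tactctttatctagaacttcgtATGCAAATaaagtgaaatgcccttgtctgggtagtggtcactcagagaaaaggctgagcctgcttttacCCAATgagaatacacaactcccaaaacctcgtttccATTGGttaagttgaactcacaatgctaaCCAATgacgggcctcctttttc
H2ac11: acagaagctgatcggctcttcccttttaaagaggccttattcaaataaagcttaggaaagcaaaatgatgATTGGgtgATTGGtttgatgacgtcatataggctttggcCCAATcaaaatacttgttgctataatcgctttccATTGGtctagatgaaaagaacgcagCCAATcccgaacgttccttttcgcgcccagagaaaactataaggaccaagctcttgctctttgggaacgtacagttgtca
They lie at chr13:23574208-23574380 (plus strand, 173 bases), chr13:22035644-22035820 (minus, 177 bases) and chr13:22042950-22043197 (minus, 248 bases). The stretch of H2ac7 held 4 CCAAT matches, that of H2ac12 held 3 and 1 octamer, and that of H2ac11 held 5 CCAAT matches. Over the 300-base windows of the table, from 250 bases before to 50 after the start, CCAAT stood in 44 of the 52 members with an entry (84.6%) and in 37.4% of all 32817 windows. TATAAA stood in 28 members (53.8%, against 13.6%) and the octamer in 10 (19.2%, against 1.74%). In these windows H2ac7 and H2ac12 held 1 TATAAA match each and H2ac11 none. No stretch shown above held TATAAA, so these matches did not lie within the stretches. Of the other tested H2A genes, all with negative log2 fold changes, H2ac8 and H2ac18 also held 1 each. H2ac19, Hist1h2ao and Hist1h2ap held none. The part of these letters in the differences was not tested.

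H2B had the second most reads of the core classes, and most of these were on H2bc4 (Hist1h2bc, chr13:23684199-23692908, plus strand), an H2B gene whose annotated longest transcript of 1156 bases does not hold the stem-loop letters. H2bc4 had 401, 539 and 736 reads in WT and 476, 552 and 453 in the knockout, or 36.7 ± 12.9 and 29.2 ± 1.18 CPM (SD, n = 3). The groups overlapped, and the log2 fold change was -0.33 (standard error 0.26). H2bc21 was at 2.57 ± 1.36 CPM in WT and 2.71 ± 0.186 CPM in the knockout (SD, n = 3), with a log2 fold change of 0.07 ± 0.51 (SE). Of 9 H2B genes tested, 7 had a negative and 2 a positive sign (H2bc21 and H2bc9, 0.10), and the median was -0.66. H2bc14 was at 1.03 ± 0.385 and 0.276 ± 0.0297 CPM (SD, n = 3), without overlap between the groups (log2 fold change -1.87, standard error 0.60).

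Among the H3 genes no library held more than 39 reads of a single gene. H3c3, the H3 gene with the most reads, had 17, 31 and 39 in WT and 17, 13 and 19 in the knockout (log2 fold change -0.96, standard error 0.56). H3c1 had 22, 20 and 26 reads in WT and 7, 13 and 10 in the knockout (-1.32, standard error 0.51), and its groups did not overlap. H3c7 had 21, 10 and 27 reads in WT and 13, 17 and 2 in the knockout (-0.99, standard error 0.77). H3c4 had the only positive sign of the class, 0.73 with a standard error of 0.80, and 14, 1 and 5 reads in WT against 11, 15 and 9. None of the 6 H3 genes tested was called.

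Of the H4 genes, H4c9 (Hist1h4i, chr13:22040636-22041362, minus strand) had 61, 43 and 91 reads in WT and 18, 29 and 14 in the knockout (log2 fold change -1.82, standard error 0.46). H4c8 had 33, 16 and 44 reads in WT and 2, 5 and 12 in the knockout (-2.37, standard error 0.75). Hist1h4m had 18, 13 and 23 reads in WT and 5, 0 and 0 in the knockout, and its fitted log2 fold change of -3.41 (standard error 1.15), the lowest of the members fitted, rests on these few reads. All 3 genes had groups without overlap. H4c4 varied widely within WT, with 14, 34 and 100 reads in WT and 34, 25 and 29 in the knockout (-0.89, standard error 0.71). H4c3 was at 1.91 ± 0.536 CPM in WT and 1.44 ± 0.121 CPM in the knockout (SD, n = 3), with overlap.

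H1f0 (chr15:79028450-79030504, plus strand), the linker histone that is not tied to replication, had little spread within the groups. It had 2144, 1668 and 2009 reads in WT and 1119, 1394 and 1208 in the knockout, or 125 ± 7.35 and 73.2 ± 1.70 CPM (SD, n = 3). The log2 fold change was -0.77 (standard error 0.11). H1f2, a replication-dependent linker histone, had 307, 372 and 608 reads in WT and 332, 385 and 312 in the knockout, with overlap (log2 fold change -0.47, standard error 0.29). H1f4 had 55, 63 and 101 reads in WT and 43, 51 and 45 in the knockout (-0.80, standard error 0.38), without overlap. H1f5 was at 2.37 ± 0.391 and 1.25 ± 0.211 CPM (SD, n = 3). H1f8, the oocyte form, had no reads in WT and 3, 0 and 10 in the knockout.

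Over the family, 2 members were called higher (H2ac7 and H2ac12) and 7 called lower (H1f0, H2ac11, H2ac18, H2bc11, H4c9, Hist1h2ao and Hist1h2ap) at an adjusted p under 0.05 in edgeR's quasi-likelihood test, and 25 of the 34 tested were not called. Of all 13623 genes tested, 11.7% were called, 5.94% higher and 5.81% lower, and since the family was chosen on this contrast, nothing is read from its count. Of the 34 members tested, 17 had groups without overlap, 15 lower and 2 higher. Over all genes tested 42.8% had groups without overlap, 21.2% lower and 21.6% higher. By sign alone, 29 of 34 members had a negative log2 fold change, against 51.6% of all genes tested. The median log2 fold change was -0.94 over the members and -0.03 over all genes. By class it was -0.79 for H1 (4 tested), -1.60 for H2A (8), -0.66 for H2B (9), -1.08 for H3 (6) and -0.89 for H4 (7).

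**Figure D3:**
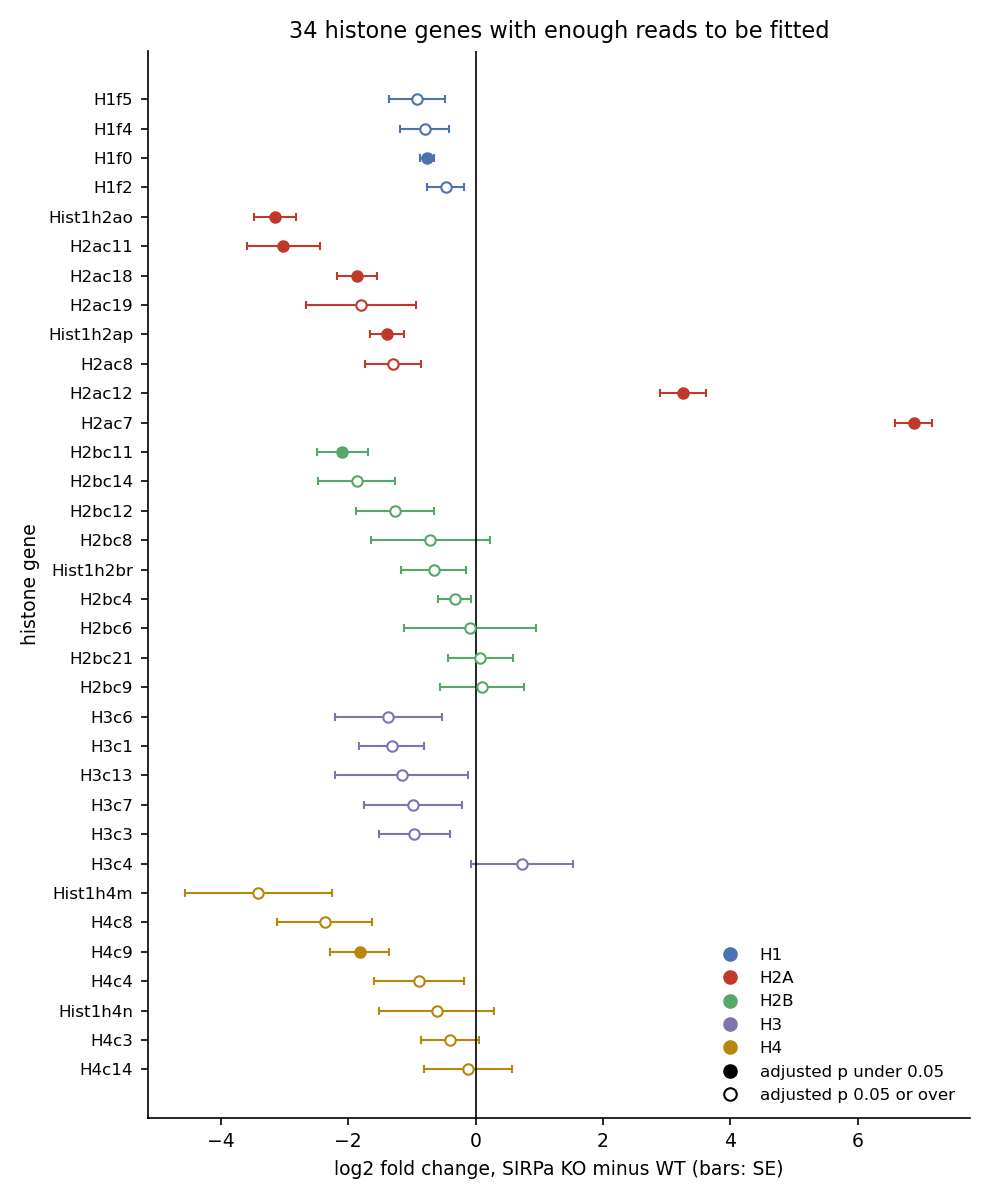
Log2 fold change (knockout minus WT, horizontal axis) with its standard error for the 34 histone genes fitted, coloured by class, with filled points for an adjusted p under 0.05 in edgeR's quasi-likelihood test. H2ac7 and H2ac12 stand alone on the right, and 29 of 34 points lie left of 0.

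Summing by class avoids the division of reads between copies of one class that are in the family. Gm20634, a gene of the count table outside the family, matched H2ac18 at 100% over 529 bases and H3c15 at 100% over 666. Reads given to it are not in the H2A and H3 sums. The H1 sum was 162 ± 20 CPM in WT and 98.2 ± 0.891 CPM in the knockout (SD, n = 3 each), a log2 ratio of -0.72. Without H1f0, the other 6 H1 genes, H1f8 among them, summed to 36.5 and 25.0 CPM with overlapping groups, so most of the H1 difference was that of H1f0. The H2A sum was 261, 302 and 550 CPM in WT and 200, 182 and 186 CPM in the knockout, a log2 ratio of -0.97, with no overlap. That ratio was -0.56 without WT replicate 3 and turned to 0.17 with the fit corrected for length and GC content. Without H2ac7 and H2ac12 the H2A ratio was -1.54, and without H2ac7 and Hist1h2ao it was -1.14. The H2B sum overlapped between the groups, with 36.9, 50.5 and 71.8 CPM in WT and 40.2, 36.7 and 37.3 CPM in the knockout (log2 ratio -0.48). Without H2bc4, the other 13 H2B genes summed to 13.9, 12.2 and 23.1 CPM in WT and 9.78, 7.77 and 9.24 CPM in the knockout. Those groups did not overlap, with a log2 ratio of -0.87, or -0.42 after the correction for length and GC content. H3 summed to 9.14 ± 3.77 and 4.29 ± 0.539 CPM (SD, n = 3; -1.09), and H4 to 15.3 ± 7.53 and 6.70 ± 0.899 CPM (SD, n = 3; -1.19), both without overlap, and without WT replicate 3 both ratios were -0.70. All members together came to 462, 524 and 843 CPM in WT and 350, 327 and 334 CPM in the knockout, a log2 ratio of -0.86, which was -0.54 without WT replicate 3. Without Hist1h2ap, the other 57 genes had a log2 ratio of -0.50, or 0.02 after the correction for length and GC content. All members together had a log2 ratio of -0.08 with that correction. Fewer cells in S phase, less histone RNA per cell and an effect of length or GC content cannot be told apart in these bulk samples.

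**Figure D4:**
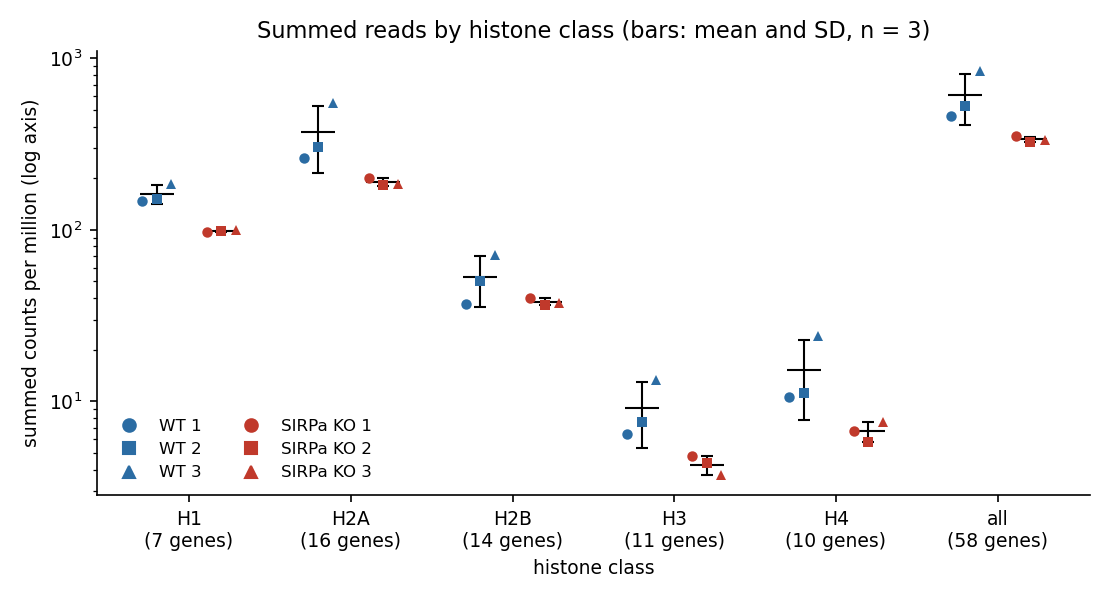
Summed CPM of each histone class and of all 58 genes on a log axis, by library (blue, WT; red, knockout), with the mean and SD of each group (n = 3). The knockout libraries lie close together in every class, the WT libraries spread upward to replicate 3, and H2B, most of it H2bc4, is the class in which the groups overlap.

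The classes were also compared by their shares of the histone reads. H2A took 56.4%, 57.7% and 65.2% of the histone reads in WT and 57.3%, 55.8% and 55.7% in the knockout. H1 took 31.9%, 29.1% and 21.9% in WT and 27.9%, 29.9% and 29.7% in the knockout, and H2B 7.99%, 9.63% and 8.52% against 11.5%, 11.2% and 11.2%. H3 took 1.39%, 1.44% and 1.59% in WT and 1.37%, 1.33% and 1.11% in the knockout, and H4 2.30%, 2.14% and 2.84% against 1.94%, 1.76% and 2.27%. The share of H2B was thus higher in every knockout library, and most H2B reads were on H2bc4. The share of H3 was lower in every knockout library, but 1.39% in WT replicate 1 and 1.37% in knockout replicate 1 were close. These rested on 112 and 75 H3 reads. The shares of H1, H2A and H4 overlapped.

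Fold changes in these libraries also followed transcript length, and histone transcripts are short, with a median of 579 bases for the longest transcript of a member. Other tested genes were split into deciles by length, and the median log2 fold change was -0.66 for the shortest (66 to 960 bases) and 0.43 for the longest. Once the fit was corrected for length and GC content, the median of the members was -0.33, with 9 higher and 25 lower by sign. The correction took length and GC content together, and the part of each was not tested. The sums moved with it. The log2 ratio of all members became -0.08, and that of H2A 0.17, so the H2A sum turned its sign. H3 went to -0.31, H4 to -0.55 and H1 to -0.51. H2ac7 and H2ac12 stood further from 0 (7.74 and 4.61), Hist1h2ao stayed lower at -2.01 and H1f0 at -0.61, and these 4 were the members still called. Hist1h2ap had -0.24 and was not called.

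**Figure D5:**
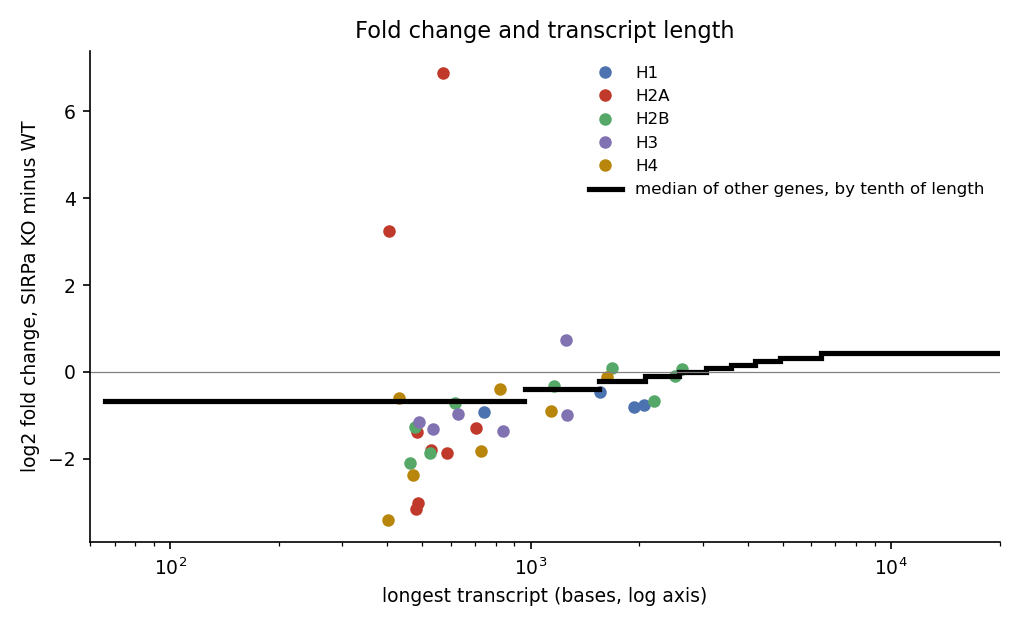
Log2 fold change (knockout minus WT) against the longest transcript in bases on a log axis for the 34 histone genes fitted, coloured by class. Black lines give the median of the other tested genes in each decile of transcript length, from -0.66 to 0.43, the last running past the right edge of the plot, and 29 of the 34 points lie below 0.

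The end of the annotated transcript divided the members in a similar way. In 22 members the stem-loop letters lay within 100 bases of the transcript's end, and the median log2 fold change of the 14 tested was -1.83 (1 called higher, 5 lower). In 17 members the transcript ran over 100 bases past the letters, as for H2bc6, H1f2 and H4c9, and the median of the 13 tested was -0.71 (1 called lower). The 19 members without the letters, 7 tested, had a median of -0.66 (1 called higher, 1 lower). Of all genes tested, 5.94% were called higher and 5.81% lower. As the family was chosen on this contrast, nothing is read from these counts. Among the members tested the first set also had the shortest transcripts, with a median of 483.5 bases against 1249 in the second and 1156 in the third (488 over all 19 members of the third), so length and transcript end cannot be told apart here. After the correction for length and GC content the medians were -0.77, -0.23 and -0.07.

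Genes outside the family were tested, in lists that were chosen with earlier results of these data known. The machinery that turns on and processes histone mRNA showed no common direction. Of 25 genes, all tested, 3 were higher and 2 lower by edgeR's quasi-likelihood test, against 5.94% and 5.81% of all genes, with a median log2 fold change of 0.24 (-0.01 after the correction for length and GC content). With that correction 1 was called higher and 2 lower, against 558 and 649 of all 13623 genes. Cstf2, a cleavage stimulation factor also found in histone pre-mRNA cleavage, rose from 60.5 to 116 CPM (log2 fold change 0.94, edgeR quasi-likelihood test, adjusted p = 0.0300). Eri1, the exonuclease that trims histone mRNA at its stem-loop, rose by 0.80 on the log2 scale (adjusted p = 0.0426, same edgeR test), and Snrpg, a core protein of small nuclear RNPs, fell by 0.81 (edgeR adjusted p = 0.0397). Slbp, which binds the stem-loop, was at 414, 349 and 337 CPM in WT and 298, 300 and 309 CPM in the knockout (log2 fold change -0.28, edgeR adjusted p = 0.132). Npat, the coactivator at histone genes, was at 42.7, 52.7 and 7.88 CPM in WT and 55.8, 64.5 and 53.9 CPM in the knockout (0.75, edgeR adjusted p = 0.374), and the low value was that of WT replicate 3, the library with the most histone reads. Casp8ap2, its partner in histone locus bodies, had 0.56 (edgeR adjusted p = 0.0600), and Lsm11, of the U7 snRNP, -0.24 (edgeR adjusted p = 0.461).

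Genes listed as replication-independent histone variants were mostly lower. Of 10 tested, 6 fell and none rose by edgeR's quasi-likelihood test, where 5.81% of all genes were called lower. H1f0, among those that fell, is a member of the family chosen on this contrast, so the count is a description. All 10 had a negative sign, as did 51.6% of all genes, and the median log2 fold change was -0.68, or -0.53 after the correction for length and GC content, when 6 were called lower again. H2az1, the main gene of the variant H2A.Z, was at 1191, 1096 and 1487 CPM in WT and 684, 742 and 718 CPM in the knockout (log2 fold change -0.82, edgeR quasi-likelihood test, adjusted p = 0.0144). H2az2, the second H2A.Z gene, fell by 1.44 in log2 terms (edgeR adjusted p = 0.00776) and H2aj, a variant H2A, by 0.80 (adjusted p = 0.0484, edgeR). Together the variants came to 3500 to 4409 CPM in WT and 2514 to 2654 CPM in the knockout.

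Genes of S phase showed no common direction. Of 42 tested, 1 rose and 4 fell by edgeR's quasi-likelihood test, where 11.7% of all genes were called, and the median log2 fold change was 0.01 (-0.10 after the correction for length and GC content). Pola1, a subunit of DNA polymerase alpha, rose from 38.4 to 74.5 CPM (0.96, edgeR quasi-likelihood test, adjusted p = 0.0144). Dut, which clears dUTP, fell from 236 to 123 CPM (-0.93, edgeR adjusted p = 0.0166), and Pold1, the catalytic subunit of DNA polymerase delta, from 206 to 126 CPM (-0.70, edgeR adjusted p = 0.0243). Of 18 genes of mitosis, 1 rose and 3 fell, with a median of -0.14, and with that correction 5 were called lower at a median of -0.10. Ube2c, a ubiquitin-conjugating enzyme of mitotic exit, fell by 0.81 in log2 terms (edgeR adjusted p = 0.0136), Birc5 by 0.75 (edgeR adjusted p = 0.0220) and Ccnb2 by 0.65 (edgeR adjusted p = 0.0212). Mki67, a marker of cycling cells, was at 179, 278 and 188 CPM in WT and 259, 285 and 232 CPM in the knockout (0.27, edgeR adjusted p = 0.348). Of 19 histone chaperones, Ipo4, which imports H3 and H4, rose by 0.69 (edgeR adjusted p = 0.0252) and Asf1b, an H3 and H4 chaperone, fell by 0.38 (edgeR adjusted p = 0.0460), with a median of 0.13, or -0.16 with that correction.

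The calls changed with the libraries used. When libraries of one code were summed, which leaves 2 against 2, H2ac7 was the only member called, and it was also the only one called when knockout replicate 1, 2 or 3 was left out. Without WT replicate 1, 2 or 3, which leaves as many libraries, 8, 9 and 8 members were called. With codes summed, and without each knockout replicate, edgeR's quasi-likelihood test called no gene of 5 lists. These are the lists of histone mRNA processing, histone variants, S phase, chaperones and mitosis. Of their 114 genes, 41 had an unadjusted p under 0.05 in that test with codes summed, as had 3359 of all 14581 genes. Without knockout replicates 1, 2 and 3 the numbers were 32, 33 and 36, against 2991 of 14242, 2935 of 14146 and 3183 of 14141 genes. DESeq2 on all libraries called 39 of the 114, and 3118 of all 13623 genes. With codes summed, the edgeR adjusted p of the genes of those lists named above as risen or fallen was 0.130 to 0.206. With the correction for length and GC content, Cstf2, Eri1, H2aj, Ccnb2 and Asf1b were no longer called (edgeR adjusted p from 0.0669 to 0.296).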

How the data were processed

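RNAseq of 6 libraries was used, from cDNA made from 10 pg of RNA. In Partek, the authors used STAR, the mm10 build and GENCODE M21 to align and annotate the reads, and deposited estimated counts per gene. The submitters' processing notes give Partek 10.0 and STAR 2.7.8, where the methods give other versions. How reads on repeated or overlapping genes were shared, and whether strand was used, is not given in the sources used here. The counts were rounded, filtered by filterByExpr (10 reads in a library of median size, 15 in all), scaled by TMM and tested with edgeR 4.0.16 (quasi-likelihood, R 4.3.3) on genotype, with Benjamini-Hochberg adjustment over 13623 genes at a threshold of 0.05. Precision is that of the 3 libraries per group and of the reads printed.

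The members and the gene lists were chosen with earlier results of these data known. The genes named are H2ac7 and Hist1h2ao, the 3 members with the highest mean CPM per class, the 5 largest rises and 5 largest falls among the members fitted, near copies of H2ac7 and Hist1h2ao, Sirpa, Slbp, Npat, Casp8ap2, Lsm11, Mki67, and the called genes with the 3 largest changes per list (or, with none called, the 2 of smallest p). Further members were named after their values were seen, for their place beside these. Symbols were matched to GENCODE M21 directly for 10 members and through RefSeq synonyms for 48, and 52 members had a RefSeq promoter entry. The length and GC correction took splines (5 degrees of freedom for either quantity), fitted on 8859 genes and used as an offset. Near copies were found with BLAST+ 2.17.0. The alternatives were other scalings and filters, DESeq2 1.42.0, a replicate block, libraries of one code summed, that correction, and leaving out each library. The procedures were tested on simulated data. Replicate numbers did not pair the samples. One gene of the cell marker lists is not reported here.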

Additional observations from a re-analysis of the deposited data

How the results depend on the processing

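The number of genes called (1600 of all tested) was 3118 with DESeq2, 10 with libraries of one code summed and from 16 to 2606 over the fits that left out 1 library, with the 3 lowest (16, 17 and 17) for SIRPα KO replicates 1, 2 and 3 and the highest for WT replicate 3. The number of histone members called (9) was 1 with codes summed, 4 with the length and GC correction, and from 1 to 9 over the fits that left out 1 library, with 1 for each SIRPα KO replicate. That single member was H2ac7. Without WT replicates 1, 2 and 3, with as many libraries left, 8, 9 and 8 members and 1111, 2309 and 2606 genes were called, and the cause was not tested. The length and GC correction removes fitted trends with length and with GC content together, and the part of each was not tested. With it, the log2 ratio of the H2A sum turned from -0.97 to 0.17, and that of H2A without H2ac7 and Hist1h2ao from -1.14 to 0.02. H1 moved from -0.72 to -0.51, H3 from -1.09 to -0.31 and all members from -0.86 to -0.08. Leaving out WT replicate 3 took the sums of all members, H2A, H2B, H3 and H4 to -0.54, -0.56, -0.19, -0.70 and -0.70. The numbers of the replicates did not pair the samples (correlations of the deviations -0.042, 0.052 and 0.007). With a replicate block, 1118 genes and 7 members were called, and H2ac11 and H4c9 were the members not called with it. Other scalings and filters left 8 or 9 members called and DESeq2 10. Depth limits the 24 members under the filter, for which no fold change is given.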
